A study of Homo sapiens with 12 samples.

Results

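PSME4 encodes PA200, a large single-chain activator that binds the end of the 20S proteasome core. In both lung cancer lines in which the gene was edited its transcript fell, to 11.6% of the wild-type mean in A549 and to 21.7% in H1299. Of 8 other genes for proteasome activators, inhibitors and bound enzymes, DDI2 rose in H1299, by 1.39-fold, a call close to its threshold that 4 of 6 single libraries decide. In A549 none of the 8 passed the test, where 2.14% of all genes did, against 8.84% in H1299. The 9 genes described are PSME4 and PSME3 (proteasome caps), PSMF1 (an inhibitor of the core), ECPAS, UBE3C, USP14 and UCHL5 (proteins bound to the proteasome), and NFE2L1 and DDI2 (a transcription factor of proteasome genes and the protease that activates it). They were chosen by symbol for these roles. All 9 were found among the 59050 gene symbols of both count tables, ECPAS under its older symbol KIAA0368, and all 9 passed the filter on low counts in both lines.

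The study asked how loss of PA200 affects gene expression. RNA was taken from A549 and NCI-H1299 (H1299 below), established lines of human non-small-cell lung cancer. Each was sampled as wild type, by its label, and with PA200 knocked out by CRISPR/Cas9. All 4 groups were cultured for 48 h, and 3 poly-A libraries per group were made from 1 µg of RNA each with a strand-specific kit. The labels name no guide, no clone and no mock-edited control. Each library is titled with a letter and a number of its own, which the labels do not explain. A group of either genotype may thus be 1 clone, several clones or a pool, and its 3 libraries may share a culture. p-values therefore measure the spread among these libraries, which may be technical. An effect of the knockout cannot be told apart from other differences between the knockout and wild-type populations.

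The 26S proteasome is the main protease of the cytosol and nucleus. Its barrel-shaped 20S core is opened by caps. The 19S regulator brings in ubiquitin-marked proteins with the use of ATP, whereas PA28αβ (PSME1 and PSME2), PA28γ (PSME3) and PA200 (PSME4) act without ATP or ubiquitin. When proteasome activity falls, the protease DDI2 cuts NFE2L1 at the endoplasmic reticulum membrane, and the freed part of NFE2L1, with a small MAF partner, raises transcription of proteasome subunit genes through antioxidant response elements.

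Letters of such an element occur near the start of 4 of the 9 genes. They are shown because NFE2L1 is known to act through them on proteasome genes. The search, whose letters were chosen after the promoters had been read, covered 250 bases before and 50 after each RefSeq start site, on both strands. It used TGACNNNGC, the core of the antioxidant response element, and TGANTCAGC, a MAF-type form. The sequences are RefSeq's on GRCh38.p14, in the direction of the gene, with 10 bases on each side of the match in lower case and the matched letters in capitals. In PSME4 and USP14 the motif is on the other strand, so its letters are reversed and complemented.
PSME4, chr2:53971009-53971037, minus strand, first matched base 34 bases before the start: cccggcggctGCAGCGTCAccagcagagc
USP14, chr18:158521-158549, plus strand, 26 bases before: tttgcgtgttGCTGCGTCAtcgccagtgg
UCHL5, chr1:193059393-193059421, minus strand, 51 bases before the first of 3 listed starts: gcgctgcaggTGACGGCGCccggaggctg
ECPAS, chr9:111484451-111484479, minus strand, 86 bases before the second of 2 listed starts: cgtccgggacTGAGTCAGCgccggggccg
The PSME4, USP14 and UCHL5 matches are to TGACNNNGC and the ECPAS match is to TGANTCAGC. All 9 genes matched the RefSeq table, with 14 promoters among them, and 3 of these 14 (21.4%) held TGACNNNGC, against 13.3% of all 35116 promoters of the same length. TGANTCAGC was in 1 of the 14, against 1.36% of all. For comparison, TGACNNNGC was in 34.8% of 23 promoters of 19S genes and in 14.3% of 14 promoters of 20S genes. Neither form was found in the window of DDI2, the gene that rose in H1299, whose 250 bases before the start are shown next.
DDI2, chr1:15617208-15617457, plus strand: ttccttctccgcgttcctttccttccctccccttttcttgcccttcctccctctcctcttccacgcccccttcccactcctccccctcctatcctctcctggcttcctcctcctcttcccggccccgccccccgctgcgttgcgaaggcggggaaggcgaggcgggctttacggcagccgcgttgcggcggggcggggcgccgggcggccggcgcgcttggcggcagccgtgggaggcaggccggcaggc
A match is a string of letters, and no binding was measured.

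Levels are CPM, a gene's counts scaled to the size of the library, after scaling of all 12 libraries together by TMM, a method that lines up libraries on the bulk of their genes. Library totals in A549 ran from 16599401 to 21112339 counts in wild type and from 30645131 to 40983933 in the knockout, without overlap. In H1299 they ran from 21405412 to 33671009 and from 23241381 to 31258258, which overlap. Members had between 391 and 13875 counts in a library. The knockout effect is the log2 fold change of knockout over wild type, fitted by edgeR's quasi-likelihood test in the 6 libraries of a line. A gene is called higher or lower where its p, adjusted by Benjamini-Hochberg over all genes tested in that line, was under 0.05. By this rule 2.14% of 20093 genes were called in A549 (0.99% higher, 1.15% lower) and 8.84% of 20194 in H1299 (4.66% higher, 4.18% lower). Wild-type replicate 1 of A549 stood apart from the other wild-type libraries and had the smallest total, 16599401. It was the lowest of the 3 for 8 of the 9 members, all but PSMF1. Genes outside the members differed there in both directions. HUWE1 had 354, 616 and 631 CPM in replicates 1 to 3, and PSMB6 had 312, 230 and 217 CPM. The A549 member values that this library moves most are also given without it. The A549 medians of the other proteasome lists include it. CDKN2A, deleted in A549, had 0 counts in all 6 A549 libraries and 28.4 to 50.6 CPM in H1299. The summed level of 8 lung epithelial markers was 4120 to 6770 CPM in A549 wild type and 6060 to 6630 CPM in the knockout, and 256 to 396 CPM in H1299 wild type and 131 to 196 CPM in the knockout. Its part in the results was not tested. NKX2-1, a lung lineage factor, had 0 counts in every A549 library and at most 1 in H1299. Markers of leukocytes summed to at most 0.551 CPM and those of fibroblasts and endothelium to at most 10.5 CPM, with PTPRC and CD3E at 0 in every library.

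**Figure D1:**
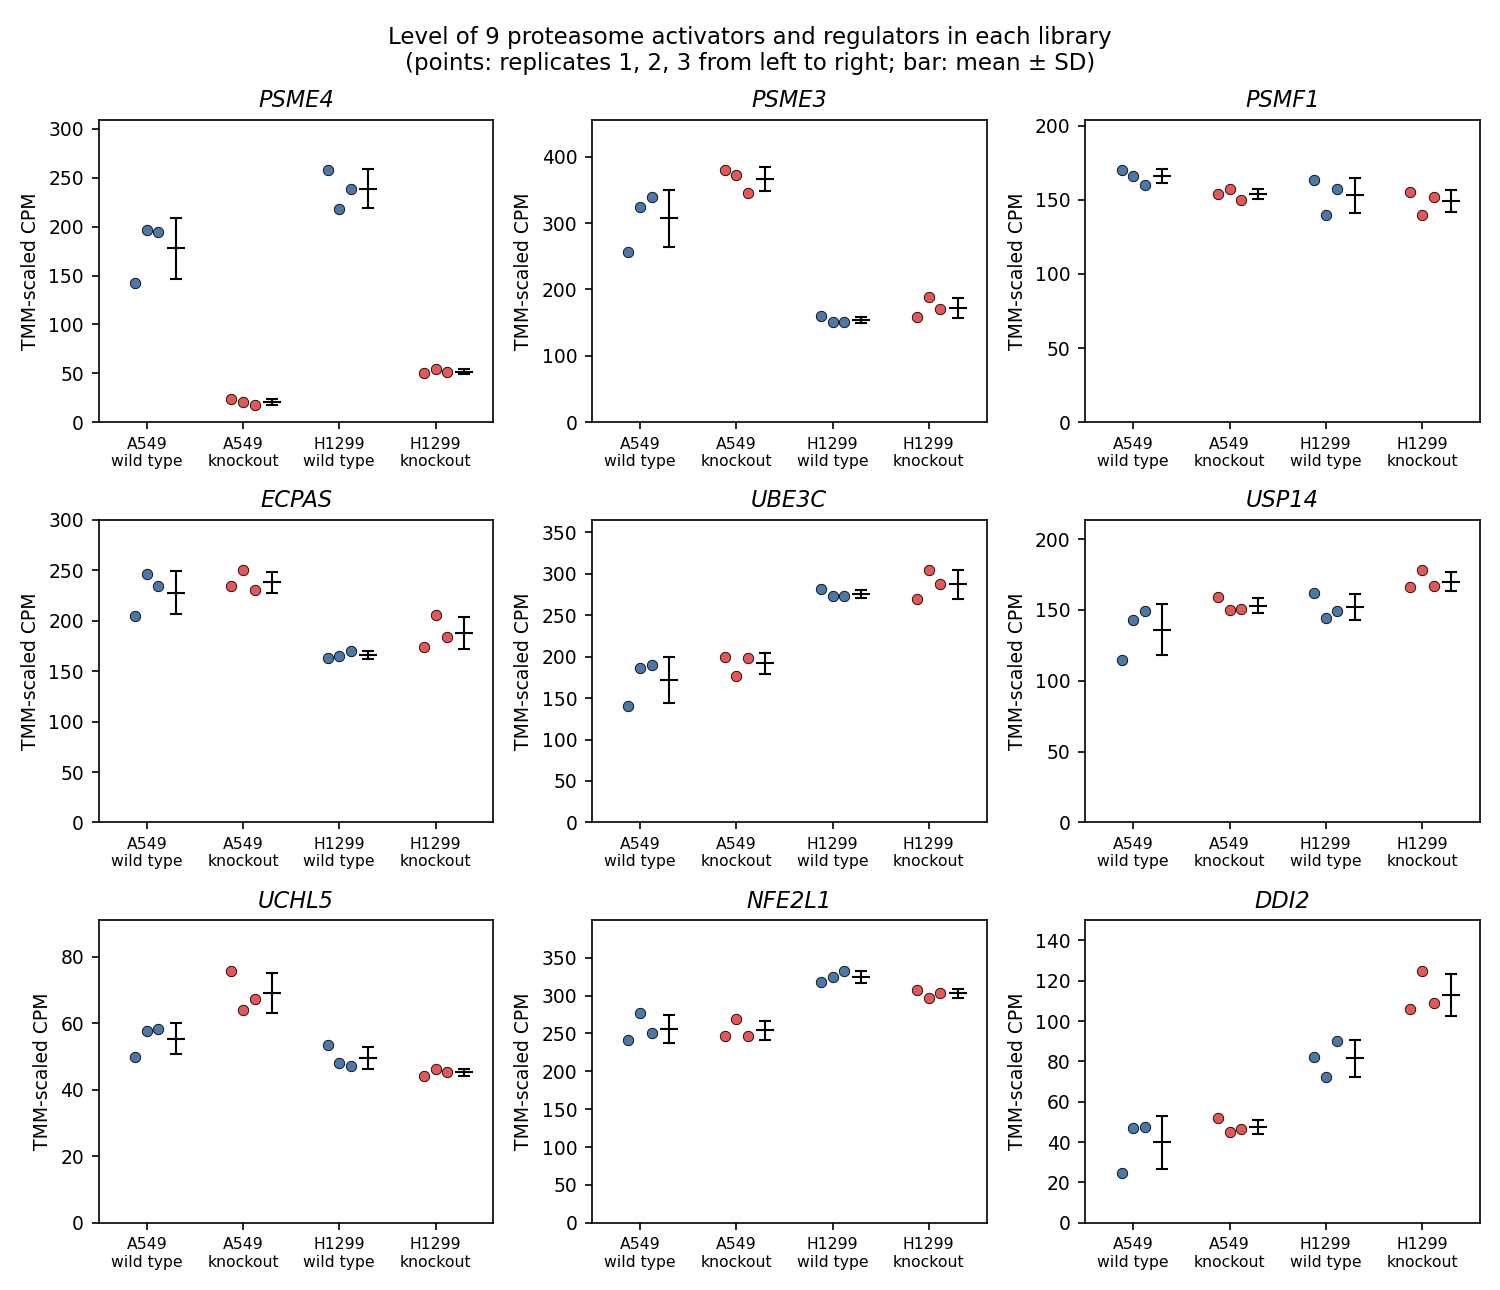
TMM-scaled CPM (y axis, linear, from 0) of the 9 genes in the 12 libraries, by line and genotype on the x axis. Each point is a library and the bar beside the points is the mean ± SD of 3 libraries. PSME4 is far lower in all 6 knockout libraries than in any wild-type library of its line, and DDI2 is higher in the 3 H1299 knockout libraries (106 to 125) than in the wild type (72.3 to 90.3).

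The edited gene checks the labels. PSME4 lies on chromosome 2 at 53864067 to 53970840 on the minus strand (GRCh38, GENCODE 29), on the short arm. In A549 wild type it had 142, 197 and 195 CPM in replicates 1 to 3, and in the knockout 23.6, 21.1 and 17.2 CPM. In H1299 wild type it had 258, 218 and 239 CPM, and in the knockout 49.8, 54.3 and 51.3 CPM. The groups were far apart in both lines, yet transcript remained in every knockout library, from 629 to 1636 counts. The log2 fold change was -3.13 (SE 0.19, 95% confidence interval -3.56 to -2.69, adjusted p = 0.00109 by edgeR) in A549 and -2.20 (SE 0.08, -2.39 to -2.02, adjusted p = 7.35e-06 by edgeR) in H1299. It was called in each of 15 other ways of processing in each line. The counts are per gene, so they show neither where in PSME4 the edit lies nor whether the remaining transcript can be translated, and PA200 protein was not measured in these files.

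The share of PSME4 transcript left was smaller in A549 than in H1299. The individual knockout libraries held 13.3, 11.9 and 9.64% of the wild-type mean in A549, and 20.9, 22.8 and 21.5% in H1299, with no overlap. The difference of the effects, H1299 minus A549, was 0.91 on the log2 scale (SE 0.20, 0.48 to 1.34, adjusted p = 0.0277 by edgeR over 22635 genes, of which 3.48% were called). It passed the threshold in 4 of 12 fits with 1 library left out, in which it ran from 0.79 to 1.06. A shift of the whole chromosome arm moved with it. In A549 the typical gene of 2p, over 522 genes, was 0.46 lower (log2) in the knockout. The wild-type libraries lay at 0.20, 0.24 and 0.25 and the knockout libraries at -0.11, -0.15 and -0.44 relative to the mean of all 6. In H1299 the arm moved by 0.05. With each library centred within each arm, PSME4 was still lower in both lines, at -2.67 in A549 (adjusted p = 0.00123) and -2.25 in H1299 (adjusted p = 1.12e-06), and the difference between lines was 0.41 (SE 0.16, adjusted p = 0.23).

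Genes beside PSME4 were mostly below 0 in A549 and not in H1299, a difference that was not tested. Among 21 other genes that start within 5 Mb and have a log2 CPM of at least 1 in both lines, the median log2 fold change was -0.36 in A549, with 18 of 21 below 0. In H1299 it was 0.10, with 8 of 21 below 0. The medians over all genes tested were -0.01 and -0.00. The whole arm 2p shifted by -0.46 in A549 and by 0.05 in H1299. VRK2, a kinase gene, was the one neighbour called in A549, at -0.61 (adjusted p = 0.048). EML6, a gene for a microtubule-associated protein that starts 0.7527 Mb from PSME4, was the one called in H1299. It had 4.5, 3.9 and 5.34 CPM in wild type and 11.9, 14.4 and 14.6 CPM in the knockout, a log2 fold change of 1.58 (SE 0.15, adjusted p = 0.00129). In A549 EML6 went the other way, at -0.57, without passing the test (adjusted p = 0.2). ACYP2, which starts on the opposite strand within PSME4's first exon, was at -0.36 in A549 and 0.19 in H1299, and neither passed (adjusted p = 0.478 and 0.302).

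**Figure D2:**
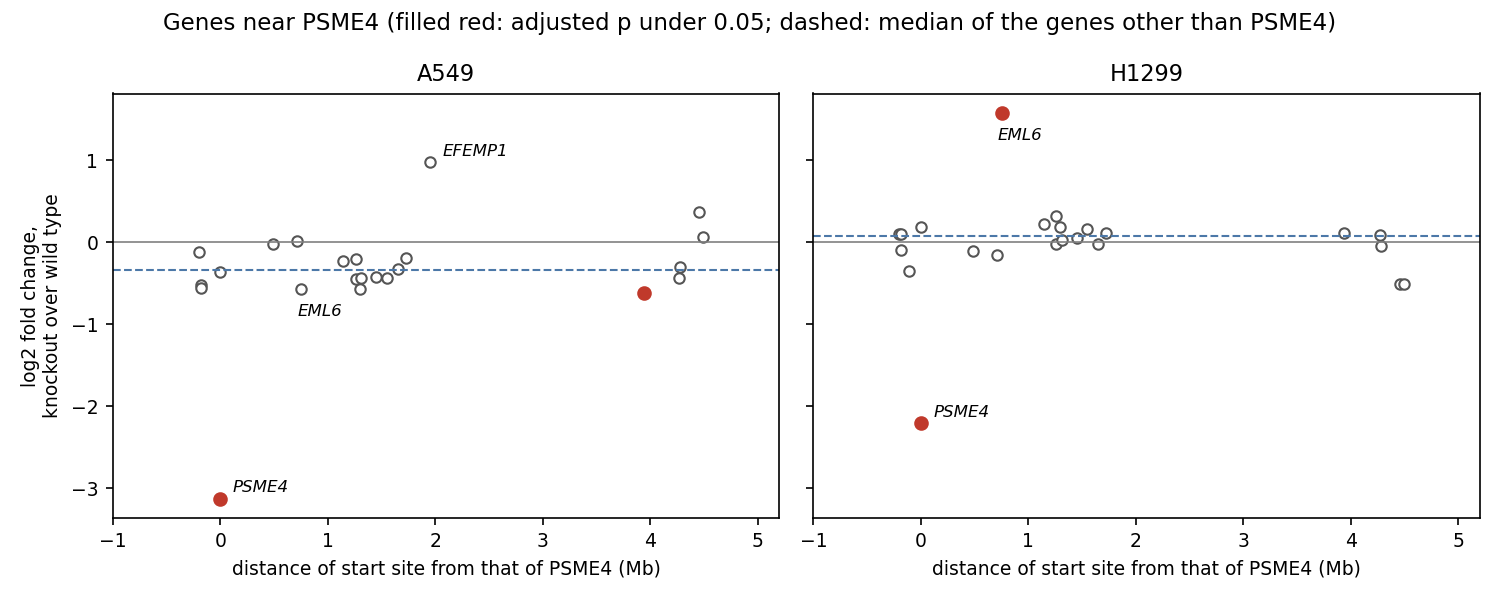
Log2 fold change of knockout over wild type (y axis) for PSME4 and the 22 other genes measured in each line that start within 5 Mb of it (21 of them in both lines), by distance of the start site in Mb (x axis), in A549 (left) and H1299 (right). Filled points passed the adjusted threshold and the dashed line is the median without PSME4, which lies at -0.34 in A549 and at 0.08 in H1299.

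The 8 other genes had smaller log2 fold changes than PSME4. In A549 0 of 8 were called by edgeR, where 2.14% of all genes were, and also 0 by DESeq2 and by limma-voom. At an unadjusted p under 0.05 there was 1 of 8 (UCHL5), where 19.1% of all genes tested had such a p. In H1299 1 of 8 was called by each of the 3 tools (DDI2), where edgeR called 8.84% of all genes. There 3 of 8 had an unadjusted p under 0.05 against 25.1% of all genes. Not passing the threshold does not show that a gene is unchanged. The median log2 fold change of the 8 was 0.15 in A549 (from -0.12 to 0.30) and 0.11 in H1299 (from -0.13 to 0.48). In A549 6 of 8 and in H1299 5 of 8 were above 0. Without wild-type replicate 1 the A549 median was 0.02 (from -0.09 to 0.25), with 5 of 8 above 0. Knockout and wild-type libraries did not overlap for 4 of the 8 in A549 (3 higher, 1 lower) and for 5 of the 8 in H1299 (3 higher, 2 lower), where 25.5% (13.5% higher, 12% lower) and 30.1% (15.6% higher, 14.5% lower) of all genes did not overlap. Averaged over both lines in 1 fit, PSME4 was the one member called (-2.66, adjusted p = 4.58e-08), where 4.31% of 22635 genes were, and DDI2 was at 0.37 (adjusted p = 0.145). Transcript counts of a bulk sample cannot tell more RNA per cell from more cells that express a gene.

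**Figure D3:**
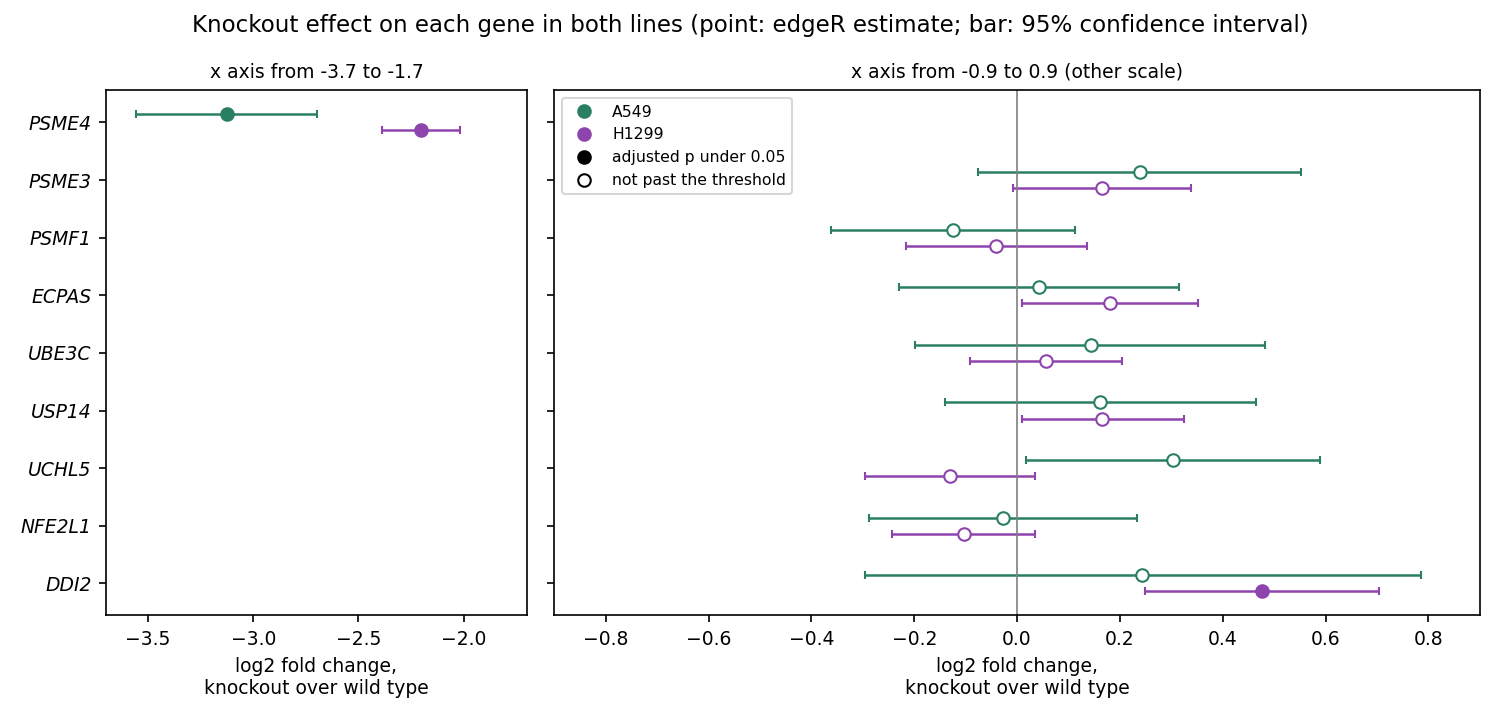
Log2 fold change of knockout over wild type (x axis) of the 9 genes in A549 and H1299, as edgeR estimates with 95% confidence intervals. The left panel holds PSME4 and the right panel, on another scale, the other genes. PSME4 is at -3.13 and -2.20, and DDI2 in H1299, at 0.48, is the one other filled point.

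PSME3 encodes PA28γ, the nuclear cap that forms a ring of one kind of subunit. In A549 it had 257, 324 and 339 CPM in wild type and 380, 373 and 346 CPM in the knockout. The knockout libraries all lay above the wild type, the nearest by 346 to 339 CPM. The log2 fold change was 0.24 (SE 0.14, -0.08 to 0.55, adjusted p = 0.391 by edgeR). In H1299 the values were 160, 151 and 151 CPM against 159, 189 and 170 CPM, which overlap, with 0.17 (SE 0.08, -0.01 to 0.34, adjusted p = 0.215). Without wild-type replicate 1 the A549 value was 0.14. The intervals allow a rise of up to 46.8% in A549 and do not show that PSME3 is unchanged.

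Among the 4 ATP-independent caps the mix of transcripts shifted as PSME4 fell. The length used is that of all annotated exons of a gene merged, which may differ from the transcript made. Shares therefore depend on the annotation too. In A549 wild type PSME1 and PSME2 had similar means, 128 and 131 CPM, but 71.9 and 36.6 CPM per kb. Per kilobase of exon, PSME4 made up 6.86, 10.6 and 11% of the summed level of PSME1 to PSME4 in A549 wild type and 1.27, 0.934 and 0.886% in the knockout. In H1299 it made up 23.1, 19.7 and 23.4% and then 5.8, 6.08 and 5.73%. PSME4 was a smaller share of this mix in wild-type A549 than in wild-type H1299. The mean share of PSME3 was 28.2 ± 1.14% in H1299 wild type and 38.8 ± 2.83% in the knockout (SD, n = 3), and 32.5 ± 6.97% and 36.3 ± 4% in A549, where the libraries overlap. A share of this sum rises when PSME4 falls. With the other caps at their wild-type means and PSME4 at its knockout mean, the share of PSME3 would be 34.1% in H1299 and 35% in A549. In CPM per kilobase, PSME4 lost 15.4 in A549 and 18.2 in H1299, and PSME3 differed by 11.5 and 3.63. Without wild-type replicate 1 the A549 difference of PSME3 was 6.7. PSME1 and PSME2, which together form PA28αβ, had log2 fold changes of 0.19 and 0.15 in A549 and -0.17 and -0.11 in H1299, none of them called.

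PSMF1 encodes PI31, which inhibits the isolated 20S core. Its 4 group means lay between 149 and 166 CPM. It had 170, 166 and 160 CPM in A549 wild type and 154, 157 and 150 CPM in the knockout, lower in all 3 by a small margin. In H1299 it had 163, 140 and 157 CPM and 155, 140 and 152 CPM, which overlap. The log2 fold changes were -0.12 (-0.36 to 0.11, adjusted p = 0.558) and -0.04 (-0.22 to 0.14, adjusted p = 0.8), so a fall beyond 22.1% in A549 or 13.9% in H1299 lies outside the 95% intervals.

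ECPAS (also ECM29) is a scaffold that ties the 19S regulator to the core. In H1299 it had 163, 165 and 170 CPM in wild type and 174, 206 and 184 CPM in the knockout. All 3 knockout libraries were higher, at a log2 fold change of 0.18 (SE 0.08, 0.01 to 0.35) that did not pass after adjustment (adjusted p = 0.179). In A549 it had 205, 246 and 234 CPM against 234, 250 and 230 CPM, which overlap, at 0.04 (-0.23 to 0.32, adjusted p = 0.877), or -0.02 without wild-type replicate 1. UBE3C is a ubiquitin ligase of the 26S proteasome that lengthens ubiquitin chains on substrates held there. It had 140, 186 and 190 CPM against 200, 177 and 198 CPM in A549, and 282, 273 and 273 CPM against 270, 304 and 287 CPM in H1299. Both pairs overlap, and the log2 fold changes were 0.14 (adjusted p = 0.647) and 0.06 (adjusted p = 0.648). The first was 0.03 without wild-type replicate 1.

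USP14 and UCHL5 encode the deubiquitinases that trim ubiquitin from substrates at the 19S regulator. USP14 had 115, 143 and 149 CPM in A549 wild type and 159, 150 and 151 CPM in the knockout. In H1299 it had 162, 144 and 149 CPM and then 166, 178 and 167 CPM. The knockout libraries were above the wild type in both lines, by 0.16 (-0.14 to 0.46, adjusted p = 0.548) and 0.17 (0.01 to 0.32, adjusted p = 0.176) on the log2 scale, with neither past the threshold. In A549 the value was 0.07 without wild-type replicate 1.

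UCHL5 differed in sign between the lines. It had 49.9, 57.8 and 58.3 CPM in A549 wild type and 75.8, 64.1 and 67.2 CPM in the knockout. In H1299 it had 53.3, 48.1 and 47.1 CPM and then 44.1, 46.2 and 45.3 CPM. The libraries did not overlap in either line, higher in the A549 knockout and lower in the H1299 knockout. The log2 fold changes were 0.30 (SE 0.12, 0.02 to 0.59, adjusted p = 0.238) and -0.13 (SE 0.07, -0.29 to 0.03, adjusted p = 0.305). The difference between lines was -0.45 (SE 0.14, -0.76 to -0.14) and did not pass by edgeR (adjusted p = 0.102), while DESeq2 called it (adjusted p = 0.0388). The arm that holds UCHL5, 1q, was lower by 0.28 over 774 genes in the H1299 knockout and moved by 0.02 in A549. With arms centred, UCHL5 in H1299 was at 0.15 (adjusted p = 0.159) and the difference between lines at -0.16 (adjusted p = 0.626). RO60, on the opposite strand, shares 451 exon bases with UCHL5 and had 68.4 to 76.5% as many counts by group. The strand setting of the counting is not given, so the part of such reads in these values was not tested.

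NFE2L1 transcript did not pass the test in either line. It had 242, 277 and 250 CPM in A549 wild type and 247, 269 and 247 CPM in the knockout. In H1299 it had 318, 325 and 333 CPM and then 308, 297 and 304 CPM, lower in all 3. The log2 fold changes were -0.03 (-0.29 to 0.23, adjusted p = 0.92) and -0.10 (-0.24 to 0.04, adjusted p = 0.332). The A549 value was -0.055 without wild-type replicate 1. NFE2L1 is controlled largely through the stability and cleavage of its protein, which counts of its RNA do not measure. AC004477.2, a short gene lying whole within NFE2L1's exons on the opposite strand, had 13.8 to 15.2% as many counts as NFE2L1 in the 4 groups.

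DDI2 was the one member besides PSME4 to pass the test. It encodes the aspartic protease that releases NFE2L1 from the membrane. In H1299 it had 82, 72.3 and 90.3 CPM in wild type and 106, 125 and 109 CPM in the knockout, so every knockout library was above every wild-type library. The log2 fold change was 0.48 (SE 0.10, 0.25 to 0.70, adjusted p = 0.0224 by edgeR), a rise of 18.8 to 62.9% by the 95% interval, where 4.66% of all genes were called higher in H1299. In A549 it had 24.7, 47 and 47.7 CPM and then 51.7, 45.1 and 46.4 CPM, which overlap. The A549 value of 0.24 (SE 0.24, adjusted p = 0.618) fell to 0.01 without wild-type replicate 1. The difference between lines was 0.22 (SE 0.28, adjusted p = 0.752), and without that library 0.48 (SE 0.15, adjusted p = 0.102). Neither passed the threshold.

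The DDI2 call in H1299 was close to its threshold. It was lost with wild-type replicate 1, wild-type replicate 2, knockout replicate 2 or knockout replicate 3 left out, at adjusted p of 0.0516, 0.0537, 0.0706 and 0.0684 and log2 fold changes of 0.40 to 0.51. It was also lost where all 12 libraries shared 1 estimate of spread (0.475 on the log2 scale, adjusted p = 0.245). Its arm, 1p, was 0.15 higher over 1130 genes in the H1299 knockout, and with arms centred DDI2 rose by 0.33 (adjusted p = 0.0335). RSC1A1, a gene of 1854 exon bases, lies whole within an exon of DDI2 on the same strand, so that reads there fit both genes. RSC1A1 had 23.9 to 27.1% as many counts as DDI2, and how such reads were divided between the 2 genes is not given. The counts of both genes summed gave 0.49 in H1299 (adjusted p = 0.0219).

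Between the wild-type groups of the lines, the 9 genes differed about as often as genes in general. In wild-type H1299 against wild-type A549, 6 of 9 were called, where 65.6% of all genes were (31.8% higher, 33.7% lower). The libraries of the lines did not overlap for these 6, where 67.9% of all genes did not. PSME4 (0.42, adjusted p = 0.0169), UBE3C (0.68, adjusted p = 0.000164), NFE2L1 (0.34, adjusted p = 0.00269) and DDI2 (1.03, adjusted p = 0.000451) were higher in H1299 on the log2 scale. PSME3 (-0.997, adjusted p = 4.34e-06) and ECPAS (-0.46, adjusted p = 0.000875) were lower. PSMF1, USP14 and UCHL5 had libraries that overlap between the lines, and were at -0.11, 0.17 and -0.16. PSME4 was no longer called without wild-type replicate 1 of A549 (0.24) or of H1299 (0.33), both at adjusted p = 0.0902, while UCHL5 was called without the former (-0.27, adjusted p = 0.0268). Centring within arms changed these values more. It gave UBE3C 0.25 (no longer called, adjusted p = 0.0721), PSME3 -0.33, DDI2 0.49, NFE2L1 1.02 and PSME4 0.76, and it called PSMF1 (0.35) and USP14 (-0.33).

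Levels per kilobase compare genes only as far as the merged annotated exons match the transcripts made. On this scale PSME3 led in A549 wild type at 59.5 ± 8.41 CPM per kb (SD, n = 3). NFE2L1 followed at 44.0 and PSMF1 at 31.3. ECPAS (27.0), USP14 (22.6), UBE3C (18.6) and PSME4 (17.4) came next, each overlapping its neighbour in that order. UCHL5 (8.31) and DDI2 (3.28) were lowest. In H1299 wild type NFE2L1 led at 55.9, UBE3C, PSME3, PSMF1, USP14 and PSME4 lay between 29.9 and 23.3 with each neighbour overlapping the next, and ECPAS (19.6), UCHL5 (7.43) and DDI2 (6.72) followed. In both knockouts PSME4 was last, at 2.01 in A549 and 5.06 in H1299. DDI2, which overlapped UCHL5 in H1299 wild type, stood above it in the H1299 knockout, at 9.34 against 6.78 CPM per kb.

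The genes whose levels followed PSME4 most closely were found over the 12 libraries with each line's mean removed, among 10157 genes. HJURP, a chaperone of centromeric histone, had r = 0.97, CFLAR, an inhibitor of caspase-8, 0.94, UCK2, a uridine-cytidine kinase, 0.92, ANKH, a membrane transporter of phosphate compounds, 0.92, and EHD3, an endocytic trafficking protein, 0.91. The points share a genotype and, for HJURP, CFLAR and EHD3, chromosome 2 with PSME4, so the values describe an order and no more. Picking genes by likeness to PSME4 favours those lower in the knockouts, so calls among them are not separate results. EHD3 was at -0.825 in A549 (adjusted p = 0.0622). In H1299 it was called lower, at -0.406 (adjusted p = 0.0398), a call kept in 9 of 15 alternatives. HJURP was called lower in both lines, at -0.78 (adjusted p = 0.0346) in A549 and -0.38 (adjusted p = 0.01) in H1299. Of all genes 1.15% and 4.18% were called lower. The A549 call of HJURP was lost without wild-type replicate 2 (-0.73) or any 1 knockout replicate (-0.86, -0.78 and -0.69), and its H1299 call without knockout replicate 3 (-0.38). With arms centred HJURP was at -0.34 in A549 (adjusted p = 0.193) and at -0.41 in H1299 (adjusted p = 0.00397). Among the other members r with PSME4 ran from -0.64 (PSME3) to 0.55 (PSMF1).

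The rest of the proteasome was described through lists fixed by function. Over all genes tested, 2.14% were called in A549 and 8.84% in H1299, and 19.1% and 25.1% had an unadjusted p under 0.05. Of 14 genes of the 20S core 0 were called in A549 (1 at an unadjusted p under 0.05, lower) and 1 in H1299. The medians were -0.06 and -0.01, beside -0.01 and -0.00 for all genes. The 1 called was PSMB4, a subunit of the inner β ring, which fell in H1299 from 353, 270 and 283 CPM to 240, 225 and 236 CPM (log2 fold change -0.37, adjusted p = 0.0475). Of 19 genes of the 19S regulator 1 was called in each line, with medians of 0.05 and -0.03. PSMD14, the deubiquitinase that removes ubiquitin chains as a substrate enters, fell in A549 from 214, 211 and 208 CPM to 145, 147 and 137 CPM, and the groups lie far apart. Its log2 fold change was -0.58 (SE 0.10, adjusted p = 0.0425), and in H1299 it was 0.11. PSMD4, a ubiquitin receptor, fell in H1299 from 298, 240 and 248 CPM to 210, 203 and 202 CPM (-0.35, adjusted p = 0.035). These 3 calls depended on single libraries. PSMD14 kept its call with wild-type replicate 3 left out and lost it with any other 1 left out (-0.53 to -0.59). PSMB4 kept it with wild-type replicate 2 left out and lost it with any other (-0.26 to -0.41). PSMD4 lost it without wild-type replicate 3 or any 1 knockout replicate (-0.34 to -0.38).

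Chromosome arms moved with these calls too. PSMD14 lies on chromosome 2, and with arms centred it was at -0.14 in A549 (adjusted p = 0.553). PSMB4 and PSMD4 were at -0.08 and -0.07 in H1299 (adjusted p = 0.512 and 0.527). None of the 3 then passed.

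PSMB9 is an immunoproteasome subunit induced by interferon. It was the 1 called gene of 5 in the list of PA28αβ and immunoproteasome genes, in H1299, where 8.84% of all genes were called. There it fell from 9.13, 10.6 and 8.98 CPM to 6.87, 6.48 and 6.72 CPM (-0.52, adjusted p = 0.0285). The call was kept with wild-type replicate 1 left out and lost with any other library left out, at -0.44 to -0.55. In H1299 all 5 of this list were below 0, with a median of -0.17. In A549 0 of 5 were called. PSMB9 was the 1 gene there at an unadjusted p under 0.05, and it was also lower, at -1.05. It went from 29, 16.3 and 12.5 CPM to 6.67, 14 and 7.45 CPM, which overlap. Of 9 assembly factors, the chaperones that build the core and the base of the 19S regulator, 0 were called in either line. At an unadjusted p under 0.05 there were 0 in A549 and 1 in H1299, against 19.1% and 25.1% of all genes. In H1299 all 9 were above 0, between 0.02 and 0.20, with a median of 0.13.

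**Figure D4:**
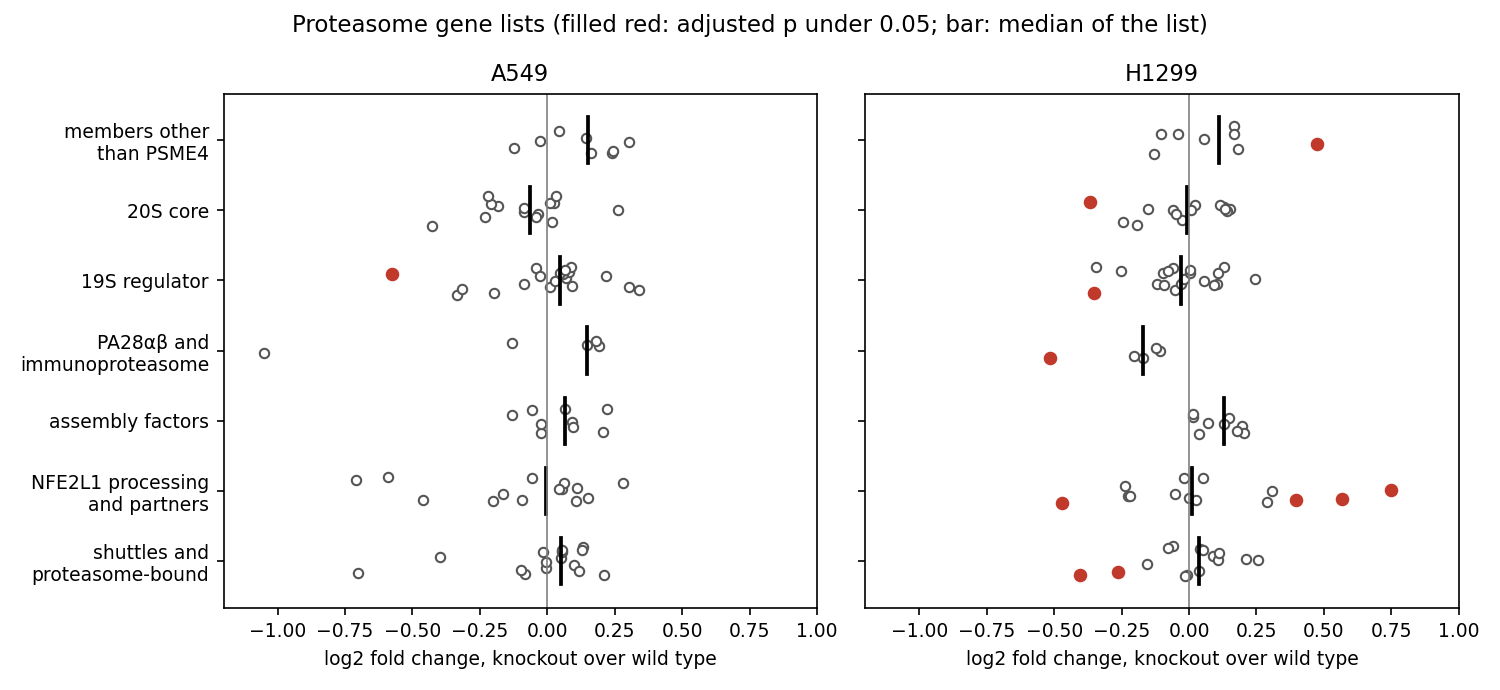
Log2 fold change of knockout over wild type (x axis) of each gene in the members other than PSME4 and in 6 lists of proteasome-related genes, in A549 (left) and H1299 (right). Each point is a gene, filled where it passed the adjusted threshold, and the bar is the median of the list. In A549 1 point is filled (PSMD14), and in H1299 10 are, among them DDI2 at 0.48.

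Of the 14 genes for the processing and partners of NFE2L1, 4 were called in H1299, where 8.84% of all genes were, 3 higher and 1 lower, with a median of 0.01. DERL1, a membrane protein of the endoplasmic reticulum that takes part in moving proteins to the cytosol, rose from 71, 79.9 and 76.8 CPM to 95.1, 108 and 96.8 CPM (0.40, adjusted p = 0.0191). FBXW7, a substrate receptor of a ubiquitin ligase that targets NFE2L1, rose from 9.59, 9.18 and 9.25 CPM to 12.7, 12.9 and 15.8 CPM (0.57, adjusted p = 0.0199). The small MAF genes split, MAFF rising by 0.75 (adjusted p = 0.0266) and MAFK falling to -0.47 (adjusted p = 0.0487). The MAFK call, close to the threshold, was not followed through the other ways of processing. MAFG, another small MAF gene, was not called, with 45.7, 45.8 and 46.4 CPM against 44, 49.6 and 42.6 CPM, which overlap. In A549 0 of the 14 were called (3 at an unadjusted p under 0.05, each lower), where MAFF was at -0.71, MAFK at -0.59 and NFE2L2, a related transcription factor, at -0.46 (adjusted p = 0.0817). With arms centred, DERL1 and FBXW7 were at 0.15 and 0.18 and no longer passed, while MAFF kept its call at 0.81 (adjusted p = 0.0264). With 1 library left out, calls were lost for DERL1 without wild-type replicate 3 or knockout replicates 2 or 3 (0.34 to 0.42), for FBXW7 without wild-type replicates 2 or 3 or knockout replicate 3 (0.46 to 0.57), and for MAFF without any 1 library other than knockout replicate 1 (0.56 to 0.79).

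Of 15 shuttle factors and other proteins bound to the proteasome, 2 were called in H1299, where 8.84% of all genes were (4.18% lower). Both were lower, and the median of the list was 0.04. MIDN, midnolin, which takes nuclear proteins to the proteasome without ubiquitin, fell from 53.6, 48.2 and 49 CPM to 40.8, 33.3 and 39.5 CPM (-0.40, adjusted p = 0.0287). UBQLN4, a ubiquilin shuttle, fell from 127, 118 and 119 CPM to 98.5, 105 and 99.9 CPM (-0.26, adjusted p = 0.0381). Neither group overlaps its wild type. The MIDN call was lost without wild-type replicates 1 or 3 or knockout replicates 2 or 3 (-0.32 to -0.43), and the UBQLN4 call with any 1 library left out (-0.24 to -0.29). In A549 0 of 15 were called (2 at an unadjusted p under 0.05, both lower), with MIDN at 0.13 and UBQLN4 at -0.01. With arms centred, MIDN was at -0.30 (adjusted p = 0.0714) and UBQLN4 at 0.02.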

How the data were processed

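The authors deposited gene counts, unit counts per gene symbol and library, as 1 table per line. bcl2fastq 2.20.0.422 and GRCm38.p6, a mouse assembly, are named per the submitters' processing notes, but the gene symbols are human. No aligner, counter or strand setting is given in the sources used here, so antisense overlaps cannot be resolved.

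Symbols were matched to GENCODE 29, and 95.2% of them, with 99.1% of counts, were found once. In R 4.3.3, genes were kept by filterByExpr (minimum count 10), scaled by TMM and tested with edgeR 4.0.16. The difference between lines, and wild type against wild type, came from 1 fit over 12 libraries. An exact permutation test of 3 against 3 reaches p = 0.1 at best, two-sided. The p-values thus depend on edgeR's model. Alternatives were other scalings and filters, DESeq2 1.42.0, limma-voom (limma 3.58.1), 1 fit over 12 libraries, thinning to the smallest total, centring within chromosome arms and leaving out each library. Summing DDI2 with RSC1A1 was added after seeing the data. No columns were left unassigned.

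The members and lists were chosen with earlier results of these data known. Of each list the called genes were named, at most 3 by the smallest adjusted p. MAFK, MAFG, NFE2L2, HUWE1, PSMB6 and VRK2 fell outside that rule and were named after their values were seen. Genes like PSME4 were the 5 with the highest r among those whose log2 CPM averaged 3 or more in each line.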

Additional observations from a re-analysis of the deposited data

Results flagged for a closer look

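The knockout effect differed between the lines, by the interaction term of edgeR over 12 libraries, for PSME4, 2 genes of the proteasome lists, 1 neighbour of PSME4 and 2 marker genes. This term called 3.48% of 22635 genes. It called 1 of 9 members, 1 of 19 genes of the 19S regulator and 1 of 14 for NFE2L1 processing and partners. Of the 20S core, PA28αβ and immunoproteasome, assembly and shuttle lists it called 0. Among genes tested it called 1 of 8 neighbours and 2 of 5 epithelial markers. Each difference is H1299 minus A549 on the log2 scale. For PSME4 it was 0.907 (adjusted p = 0.0277). For PSMD14 it was 0.669 (SE 0.128, adjusted p = 0.0162), with a fall in A549 (-0.14 with arms centred, adjusted p = 0.553) and 0.11 in H1299. For MAFF it was 1.441 (SE 0.298, adjusted p = 0.0221), at -0.71 in A549 and 0.75 in H1299. For EML6 it was 2.13 (SE 0.249, adjusted p = 0.00124), with a rise in H1299 that was called in all 15 alternatives. The epithelial keratins KRT8 and KRT18 differed by -1.366 (SE 0.34, adjusted p = 0.0456) and -1.268 (SE 0.317, adjusted p = 0.0463), both falling in H1299, to 49.1% and 56.3% of wild type. The H1299 call of KRT8 was lost without knockout replicate 2 (-0.85) or 3 (-1.05), and that of KRT18 without knockout replicate 3 (-0.90). The keratins are markers of the lines and not of the proteasome. The part of the chromosome 2p shift in the PSME4 difference was not tested beyond the centred value of 0.41.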

How the results depend on the processing

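No paired analysis was possible because the labels give no replicate numbers that pair libraries. PSME4 was called in both lines under all 15 alternatives, and the 8 other members were never called in A549. The count of genes called in A549, 430, was 1275 without a filter, 1543 with DESeq2, 1772 with 12 libraries in 1 fit and 235 with arms centred. It ran from 10 to 1016 with 1 library left out, at 211, 10 and 1016 when the wild-type replicates 1 to 3 were dropped in turn and 139, 68 and 59 for the knockout replicates. In H1299 the 1786 genes became 3077 without a filter and 559 in the 12-library fit, and 471 to 1469 with 1 library left out. Members called in H1299 went from 2 to 1 in the 12-library fit and were 1 to 2 with 1 library left out. Members with a called difference went from 1 to 2 with DESeq2 and to 0 with arms centred, and were 0 to 1 with 1 library left out. The cause was not tested.

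Signs turned for small values. NFE2L1 in A549 was 0.003 without scaling. With arms centred, CFLAR in A549 was 0.076, and in H1299 UCHL5 was 0.151, UBQLN4 0.016 and UCK2 0.047. Between wild types, arm centring gave PSMF1 0.352 (adjusted p = 0.00106) and USP14 -0.332 (adjusted p = 0.0103), both then called. The USP14 difference was 0.004 with a filter of 1 CPM. With 1 library left out, ECPAS ran from -0.016 to 0.099 and NFE2L1 from -0.066 to 0.03 in A549, and PSMF1 from -0.102 to 0.001 in H1299. The differences between lines ran from -0.168 to 0.038 for PSME3, -0.182 to 0.042 for UBE3C and -0.085 to 0.109 for USP14.

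Of the called genes in the lists, PSMB4 kept its call in 7 of 15 alternatives, PSMB9 in 8, PSMD4, PSMD14, MAFF and MIDN in 9, DERL1 and FBXW7 in 10, and UBQLN4 in 6. The typical SE at the members' expression levels was 0.142 in A549 and 0.08 in H1299, and a change had to be several times its SE to be called.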
